A study of Homo sapiens with 25 samples.

Results

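The smooth muscle and myofibroblast contractile genes described here are 10 genes of 58302 in the files: ACTA2, TAGLN, CNN1, MYL9, TPM1, TPM2, ACTG2, CALD1, LMOD1 and SYNPO2. They were chosen by name, and each was found once by its symbol. All 10 passed the filter on low counts in every comparison.

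The study profiled hiF-T cells, a human fibroblast-like line derived from BJ skin fibroblasts with inducible hTERT, labelled WT throughout, by poly(A) RNA-seq of bulk samples. According to the series' design text, the sort followed how fast the cells proliferate, and further cells received a drug. In the sort set, 20 libraries form 5 groups of 4 labelled biological replicates: ungated cells, and cells gated for low, midlow, midhigh and high accumulation of a dye, with no treatment. The drug set holds 5 libraries, with no gate named: 1 with DMSO and 1 with no drug, which served as controls, 2 with LSD1 inhibition and 1 with DOT1L inhibition. LSD1 is a histone demethylase and DOT1L a histone methyltransferase; the labels name no compound, dose, duration or dye. The labels do not say how the cultures behind the replicates were kept apart, so p-values measure the spread between these samples. Because these are bulk samples, more cells expressing a gene and more of its RNA per cell cannot be told apart.

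Contractile genes encode the actin filaments of smooth muscle and the proteins that regulate, bundle or stabilise them. Fibroblasts switch many of them on when they become myofibroblasts, the contractile cells of wounds and scars. Transcription of the group is known to depend on serum response factor (SRF) and its cofactors of the myocardin family, which respond to actin polymerisation. SRF binds the CArG box, which reads CC, then 6 letters that are A or T, then GG.

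Promoters are shown because the genes share this known regulator. RefSeq promoter windows of 250 bases before the start (GRCh38.p14) were at hand for 8 of the 10 genes, 15 windows in all, without TAGLN and MYL9. An exact CArG box was in 1 of these 15 windows (6.67%), that of ACTG2, against 1.16% of 35116 RefSeq promoters. With 1 letter off allowed, 6 of 15 windows (40%) and 16.8% of all promoters held a match. In the other gene lists used below this share ran from 0% (proliferation genes, 11 windows) to 75% (cardiac muscle markers, 8 windows). It was 33.3% for other smooth muscle genes. Genes with several starts are counted more than once. The 3 windows below, all written 5′ to 3′ on the gene's strand and trimmed where GENCODE places an exon, are those of an actin that differed with the dye and with LSD1 inhibition, an actin that differed little with the dye, and the least abundant gene. Capitals mark CArG boxes with at most 1 letter off.

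ACTA2, start used in muscle, chr10:88952774-88953023, minus strand: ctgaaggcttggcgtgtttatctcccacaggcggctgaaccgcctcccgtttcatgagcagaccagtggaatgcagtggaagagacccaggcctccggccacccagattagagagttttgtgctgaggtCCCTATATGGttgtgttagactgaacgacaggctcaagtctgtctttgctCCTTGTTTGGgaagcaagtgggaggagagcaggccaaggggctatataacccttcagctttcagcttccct
ACTG2, chr2:73892758-73892943, plus strand: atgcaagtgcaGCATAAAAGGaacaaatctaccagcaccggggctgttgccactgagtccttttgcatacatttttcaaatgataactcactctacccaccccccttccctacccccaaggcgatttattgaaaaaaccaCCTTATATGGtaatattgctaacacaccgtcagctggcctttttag
LMOD1, chr1:201946589-201946798, minus strand: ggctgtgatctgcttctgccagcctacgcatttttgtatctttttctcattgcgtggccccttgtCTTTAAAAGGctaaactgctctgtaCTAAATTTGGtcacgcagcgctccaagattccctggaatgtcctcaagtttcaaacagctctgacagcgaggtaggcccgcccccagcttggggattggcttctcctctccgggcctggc

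In the printed ACTA2 window the matches lie 121 and 71 bases before the start and each has 1 letter off. The other ACTA2 window, from a start further upstream, and that of CNN1 held no such match and are not printed. In ACTG2 the exact match CCTTATATGG lies 110 bases before the start, and GCATAAAAGG, with 1 letter off, 239 bases before it. A second exact match of ACTG2, CCTTTTTAGG, begins 73 bases before the RefSeq start and runs into a GENCODE exon, so it is only named here. Both matches of LMOD1 have 1 letter off. These are matches of letters, not tested binding sites.

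Values are given as CPM, the count of a gene scaled to the library's gene total after TMM normalisation, and levels of different genes are compared only as CPM per kilobase of exon. Gene counts summed to between 15015039 and 20030093 per library, so 3 counts correspond to 0.150 to 0.200 CPM. Of 11 fibroblast markers, 10 reached a mean of 1 CPM over the 20 sort libraries, with widely spread values. COL6A3 was at 5275, VIM at 2337 and FBN1 at 2159 CPM. DCN was at 6.35, S100A4 at 3.75 and LUM at 2.81 CPM, and the surface marker THY1 was at 0.43 CPM. Of 23 other smooth muscle genes, 15 reached 1 CPM, among them SMTN at 268, SYNM at 20.3 and MYOCD, the myocardin gene, at 20.8 CPM. The myosin heavy chain MYH11, at 0.85 CPM, and desmin (DES), at 0.02 CPM, did not. None of 10 skeletal muscle markers and 1 of 9 cardiac markers (NKX2-5, 13.4 CPM) reached 1 CPM. All 7 pericyte markers did, a list that fibroblasts also express in part. So did 3 of 8 endothelial markers (TEK at 84.4, KDR at 1.85 and EMCN at 1.39 CPM), whereas PECAM1 was at 0.22 CPM. Of 9 epithelial markers 3 did (KRT18 at 174, KRT8 at 35.5 and KRT19 at 1.62 CPM), whereas EPCAM was at 0.53 CPM.

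The libraries numbered 3 and 4 stood apart from those numbered 1 and 2 in most of these genes. This was noticed after the values were seen. The mean of the libraries numbered 3 and 4 over that of the libraries numbered 1 and 2 was 8.25 for LMOD1, 6.07 for ACTA2, 3.45 for SYNPO2, 2.33 for ACTG2, 2.20 for MYL9 and 1.89 for TAGLN, and for these 6 genes the 10 values on each side did not overlap, as for 2.64% of 14592 genes (1.48% with the libraries numbered 3 and 4 higher). It was 1.47 for CNN1, 1.44 for TPM2, 1.39 for CALD1 and 1.27 for TPM1, whose values overlapped. In CNN1 replicate 4 lay below replicate 1 in every sort group, for example at 6.74 against 15.5 CPM in low dye cells. In TPM1 the ungated library of replicate 3 (680 CPM) lay below that of replicate 1 (896 CPM). The labels call the numbers biological replicates and give no batch, so what sets them apart is not known. Over the 20 libraries the replicate number took between 49.1% (TPM2) and 90.7% (ACTG2) of the variation of log2 CPM, against a median of 33.1% over all genes. The sort group took between 2.04% (ACTG2) and 46.2% (TPM2), against a median of 24.7%. Since same-numbered libraries deviated together, every comparison of gates was also fitted with the replicate number as a block, and the adjusted p of both fits is given where they lead to different calls, for the steps and for ungated cells as the lowest of the 10.

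**Figure D1:**
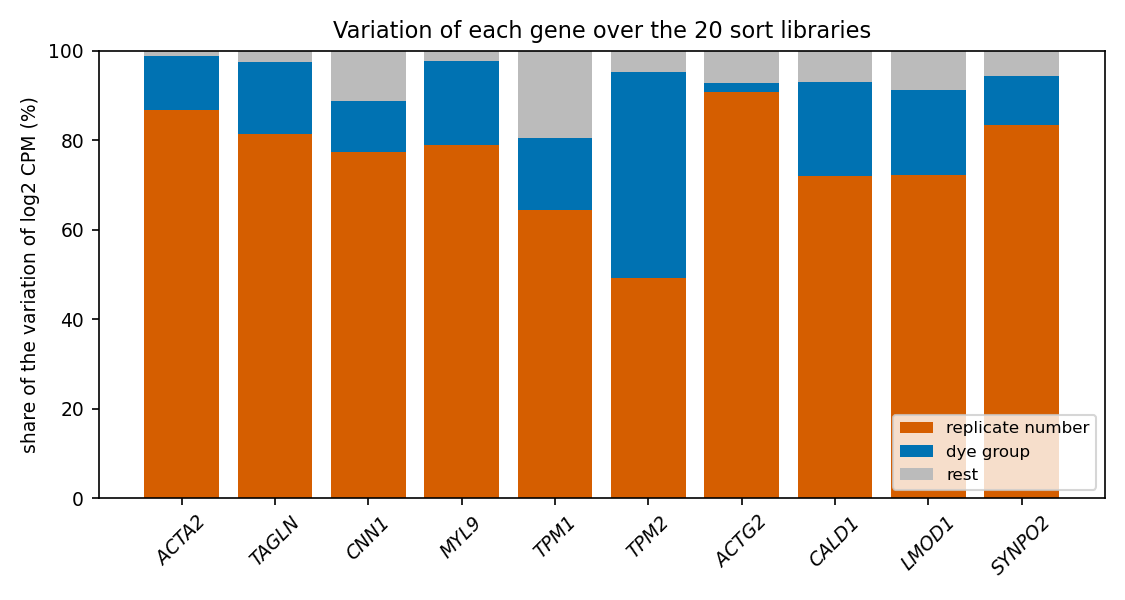
Share of the variation of log2 CPM over the 20 sort libraries that went with the replicate number, the sort group and the rest, 1 stacked bar per gene (y axis in percent). The replicate number had the larger share in all 10 genes, and in TPM2 the 2 shares were closest, at 49.1% and 46.2%.

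The most abundant contractile gene per kilobase was TPM2, a tropomyosin that runs along actin filaments, at a mean of 260 CPM per kilobase over the 20 libraries. CALD1, caldesmon, an actin-binding inhibitor of the myosin motor, followed at 150 CPM per kilobase. TAGLN, transgelin, an actin-bundling protein, and MYL9, the regulatory light chain of myosin, came next at 108 CPM per kilobase each and did not differ beyond their spread. TPM1, the other tropomyosin here, was at 69.3 and ACTG2, the gamma actin of gut smooth muscle, at 44.8 CPM per kilobase. ACTA2, smooth muscle alpha actin and the usual marker of myofibroblasts, was at 12.9, below ACTG2. CNN1, calponin, was at 4.95, SYNPO2, an actin-bundling protein also known as myopodin, at 0.764, and LMOD1, leiomodin, a nucleator of actin filaments, at 0.594 CPM per kilobase; the values of these last 2 overlapped across libraries. The exon lengths are unions over all annotated transcripts, so genes with many transcripts (34 in TPM1, 24 in CALD1) are set lower on this scale than their main transcripts would be.

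The highest ACTA2 library was 18.7 times the lowest, the second largest such ratio among the 10 genes after LMOD1. In replicates 1 to 4 in turn, it measured 5.58, 5.96, 45.1 and 37.7 CPM in low dye cells and 7.76, 7.74, 52.3 and 50.1 CPM in midlow cells. It measured 13.6, 14.2, 104 and 72.8 CPM in midhigh cells and 16.02, 16.2, 102 and 80.3 CPM in high dye cells. Ungated cells had 8.20, 13.5, 51.1 and 64.2 CPM. Within each replicate number the high dye library lay above the low dye library, while the high dye libraries of replicates 1 and 2 lay below every low dye library of replicates 3 and 4. The groups as a whole therefore overlapped.

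**Figure D2:**
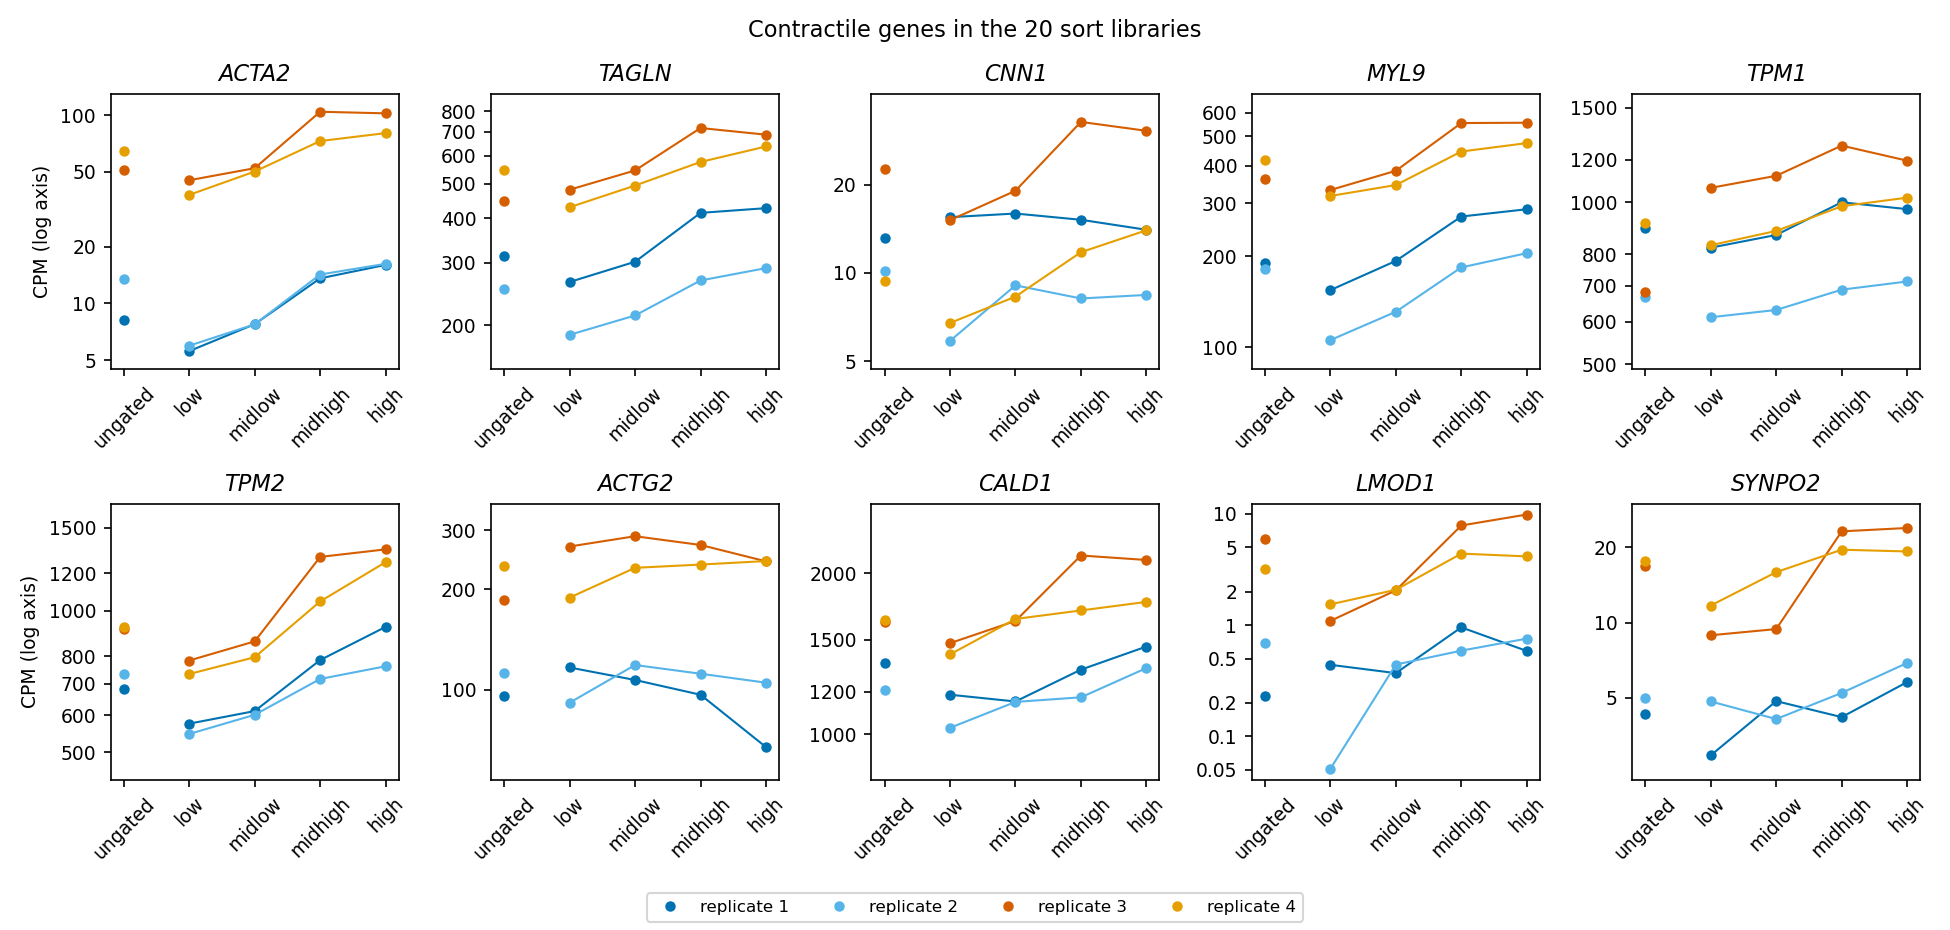
CPM (log axis) of each gene in the 20 sort libraries; lines join the 4 gates of 1 replicate number, and ungated libraries stand to the left. ACTA2 runs upward with the dye on 2 levels, from 5.58 to 16.2 CPM in replicates 1 and 2 and from 37.7 to 104 CPM in replicates 3 and 4, while ACTG2 has no common direction.

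The first comparison set high against low dye cells, the ends of the sort. TPM2 rose in high dye cells, and 8 of the 10 genes did once the replicate number was a block: ACTA2, LMOD1, SYNPO2, MYL9, TPM2, CNN1, TAGLN and CALD1. No gene of the 10 fell. TPM1 and ACTG2 did not pass the test in either fit. In all, 1 of 10 was called without the block, where 17.7% of 14592 genes were called in either direction (9.39% higher), and 8 of 10 with it, where 37.2% were called (19.8% higher). The median log2 fold change was 0.67 over the 10 genes and 0.01 over all genes tested. Calls are edgeR quasi-likelihood tests with Benjamini-Hochberg adjustment over all genes, at an adjusted p under 0.05, and errors of fold changes are standard errors.

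Of the actin genes, ACTA2 was higher in high dye cells in 4 of 4 same-numbered pairs, by 2.13- to 2.87-fold. Its log2 fold change was 1.26 ± 0.12 with the block (adjusted p = 2.66e-07) and 1.19 ± 0.90 without it (adjusted p = 0.387). ACTG2 measured 117, 91.6, 268 and 189 CPM in low dye cells and 67.5, 105, 242 and 242 CPM in high dye cells of replicates 1 to 4. It was higher in 2 of 4 pairs, and its log2 fold change was -0.09 ± 0.12 with the block (adjusted p = 0.628). The log2 ratio of ACTA2 to ACTG2 was -3.31 ± 1.01 (SD, n = 4) in low and -1.90 ± 0.63 (SD, n = 4) in high dye cells, and it was higher in 4 of 4 pairs, by 0.73 to 2.31. It is 1 of 4 ratios computed after the values were seen, with TAGLN to ACTG2, MYL9 to ACTG2 and TPM2 to TPM1. A two-sided exact permutation test over the 8 libraries gave p = 0.0857 for ACTA2 to ACTG2 and 0.0286, the smallest this design allows, for each of the other 3 (0.0857 and 0.0381 adjusted over the 4). Within pairs the exact sign-flip test gave 0.125, also the smallest possible, for each. Since the ratios were picked from these values, the tests are no independent evidence. Exons of ACTA2 share 380 of 2976 bases (12.8%) with FAS, a death receptor gene on the opposite strand, and FAS also rose with the dye (log2 fold change 1.13 ± 0.23, adjusted p = 0.0038). By the labels' protocols the library kit does not mark strand, so reads over these bases carry no strand of origin. The strand setting of the counting is not given in the sources used here. FAS took 17734 counts over all libraries. The antisense gene ACTA2-AS1, which shares 516 bases (17.3%) with ACTA2, took 234. The part of either gene in the ACTA2 values was not tested.

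The tropomyosins differed in size of change. TPM2 measured 575, 547, 783 and 733 CPM in low dye cells and 923, 762, 1349 and 1267 CPM in high dye cells. It was higher in 4 of 4 pairs, by 1.39- to 1.73-fold, although the lowest high dye library lay below the highest low dye library. The log2 fold change was 0.70 ± 0.20 (adjusted p = 0.0215). TPM1, with a log2 fold change of 0.23 ± 0.10 with the block (adjusted p = 0.0718), was higher in 4 of 4 pairs by 1.12- to 1.23-fold. The log2 ratio of TPM2 to TPM1 was -0.33 ± 0.18 (SD, n = 4) in low and 0.13 ± 0.16 (SD, n = 4) in high dye cells, higher in 4 of 4 pairs by 0.26 to 0.62, with the tests given above. Tropomyosin genes are close relatives, as are the actins. The counting set aside 0 reads as aligned to more than 1 place in every library, and how such reads were handled is not recorded.

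Among the regulators of contraction, MYL9 measured 155, 106, 332 and 317 CPM in low dye cells. It measured 287, 205, 555 and 475 CPM in high dye cells. All 4 pairs were higher, by 1.497- to 1.94-fold, and the log2 fold change with the block was 0.79 ± 0.08 (adjusted p = 7.25e-07). TAGLN went from 265, 188, 481 and 430 CPM in low dye cells to 427, 290, 687 and 636 CPM in high dye cells, a rise of 1.43- to 1.61-fold in 4 of 4 pairs (0.60 ± 0.07 on the log2 scale with the block, adjusted p = 3.78e-06). TAGLN shares 446 exon bases (11.4%) with PCSK7 on the other strand, whose log2 fold change was 0.05 ± 0.10 (adjusted p = 0.788). CALD1 was higher in 4 of 4 pairs by 1.23- to 1.43-fold (0.38 ± 0.07 with the block, adjusted p = 0.000119). CNN1 was higher in 3 of 4 pairs, from 0.906- to 2.07-fold. Its call with the block (0.61 ± 0.17, adjusted p = 0.00784) therefore has 1 pair in the other direction, replicate 1, at 15.5 CPM in low and 14.0 CPM in high dye cells. Without the block none of these 4 was called, at an adjusted p of 0.255 for MYL9, 0.29 for TAGLN, 0.167 for CALD1 and 0.363 for CNN1.

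LMOD1, the least abundant gene, had the largest fitted change and the widest error. It had 7, 1, 17 and 25 counts in the low dye libraries and 10, 14, 164 and 72 counts in the high dye libraries. The ratio of high to low was 1.33 (95% exact counting interval 0.458 to 4.12) in replicate 1, 14.8 (2.25 to 626) in replicate 2, 9.05 (5.48 to 15.9) in replicate 3 and 2.70 (1.69 to 4.44) in replicate 4. The interval of replicate 1 includes no difference, and such intervals cover counting error only. The log2 fold change was 2.15 ± 0.34 with the block (adjusted p = 5.24e-05) and 2.32 ± 1.06 without it (adjusted p = 0.139). SYNPO2 measured 2.95, 4.84, 8.90 and 11.7 CPM in low dye cells and 5.79, 6.90, 23.9 and 19.3 CPM in high dye cells. It was higher in 4 of 4 pairs, by 1.43- to 2.69-fold (0.92 ± 0.18 with the block, adjusted p = 0.000315, against 0.311 without it).

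**Figure D3:**
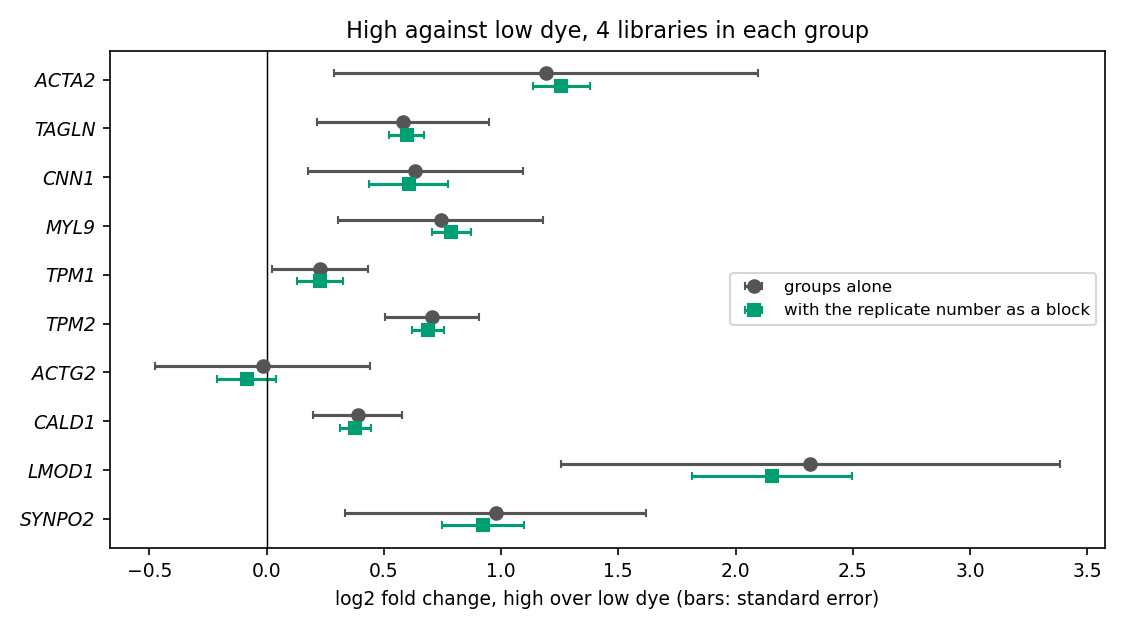
Log2 fold change of high over low dye cells with its standard error, for each gene, from the fit of the groups alone (circles) and with the replicate number as a block (squares); n = 4 libraries per group. The estimates of both fits lie close together, and the errors are smaller with the block, for ACTA2 0.12 against 0.90.

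In the libraries numbered 1 and 2 alone, 9 of the 10 genes had a fold change above 0 on the log2 scale from low to high dye, and in those numbered 3 and 4 alone all 10 did. ACTA2 had a log2 fold change of 1.48 ± 0.22 (adjusted p = 0.0175) in the first and 1.13 ± 0.19 (adjusted p = 0.0719) in the second. With 2 libraries per group, 2 of the 10 genes (ACTA2 and TPM2) were called in the first and 0 in the second, where no gene of the whole table was called. With the block, leaving out any 1 high dye library left 8 genes called, where between 4240 and 5476 of 14592 genes were called. Without the block, the TPM2 call was lost without some libraries: leaving out high dye replicate 3 gave 0.58, the lowest value, and the adjusted p reached 0.0938 over the libraries left out in turn.

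Across the 4 gates, coded as equal steps from low to high, TPM2 and LMOD1 had slopes that passed the test (2 of 10, 26.2% of 14419 genes), and 9 of 10 did with the block (43.8%). ACTG2 was the exception, with a slope of -0.03 ± 0.04 log2 units per gate with the block (adjusted p = 0.51). The slope of TPM2 was 0.25 ± 0.06 (adjusted p = 0.00722) and that of LMOD1 0.84 ± 0.30 (adjusted p = 0.0493), without the block. The LMOD1 call was lost without any 1 of 12 of the 16 libraries, and its adjusted p ran from 0.0231 to 0.231 over the libraries left out in turn. With the block the slopes were 0.45 ± 0.04 for ACTA2, 0.28 ± 0.02 for MYL9, 0.21 ± 0.02 for TAGLN and 0.09 ± 0.01 for TPM1 (adjusted p = 5.26e-08, 4.85e-08, 1.01e-07 and 8.86e-05, against 0.247, 0.145, 0.18 and 0.341 without it). The median slope was 0.24 over the 10 genes and 0.002 over all genes. Equal spacing of the gates is an assumption, since the labels give no dye values.

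Between neighbouring gates, the contractile genes changed most clearly from midlow to midhigh. None of the 10 passed the test there without the block, where no gene of 14592 did (0%), although TPM2 had an unadjusted p under 0.05; the lowest adjusted p of the 10 was 0.381. With the block 5 of 10 rose (10.8% of genes were called): ACTA2 by 0.80 ± 0.12, TAGLN by 0.35 ± 0.07, MYL9 by 0.47 ± 0.08, TPM2 by 0.40 ± 0.07 and LMOD1 by 1.36 ± 0.32 on the log2 scale. From low to midlow, 0 of 10 were called with or without the block (0.00685% of genes with it), and 0 had an unadjusted p under 0.05 without it. From midhigh to high, 0 of 10 were called in either fit (0.0137% with the block), again with 0 at an unadjusted p under 0.05. ACTA2 had log2 fold changes of 0.34 ± 0.13 over the lower step and 0.11 ± 0.12 over the upper step with the block. Whether the steps differ from each other was not tested.

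Against ungated cells, ACTA2, TAGLN, MYL9 and TPM2 were higher in high dye cells and lower in low dye cells with the block, and no contractile gene was called without it. In high dye cells 0 of 10 were called without the block (0.00685% of genes) and 4 of 10 with it (7.59%): ACTA2 at 0.62 ± 0.12, TAGLN at 0.36 ± 0.07, MYL9 at 0.39 ± 0.08 and TPM2 at 0.38 ± 0.07 on the log2 scale. In low dye cells 0 of 10 were called without the block (0.0754%) and 5 of 10 with it, all lower (10.8%, 7.20% lower). These were ACTA2 (-0.64 ± 0.13), TAGLN (-0.24 ± 0.07), MYL9 (-0.40 ± 0.08), TPM2 (-0.31 ± 0.07) and LMOD1 (-1.59 ± 0.36). LMOD1 was not called in high dye cells (0.56 ± 0.28, adjusted p = 0.232). Both comparisons use the same ungated libraries. Without the block, the lowest adjusted p of the 10 was 0.481 in high and 0.53 in low dye cells, and 0 of 10 had an unadjusted p under 0.05 in either.

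The 10 genes went up and down together over the sort libraries, mostly along the replicate numbers. All 45 pairs had a positive Pearson r of log2 CPM over the 20 libraries, with a median of 0.846 and a range from 0.363 to 0.991. With the mean of each replicate number removed, the median was 0.728 and the range -0.29 to 0.994. ACTA2 and MYL9 remained at 0.994, whereas ACTG2 had values from -0.29 (with SYNPO2) to 0.404 (with TPM1). The genes outside the list whose log2 CPM was most like that of ACTA2, of 8911 with at least 10 CPM, were CRYAB (r = 0.977), a small heat shock protein, EFEMP1 (0.974), a matrix fibulin, AVPI1 (0.972), ITGA1 (0.968), a collagen-binding integrin, and GALNT1 (0.967), a glycosyltransferase. Most like the mean of the 10 genes were TGM2 (0.977), a transglutaminase, AVPI1 (0.963), PLEKHB2 (0.963), LATS2 (0.960), a kinase of the Hippo pathway, and PEA15 (0.957). The points share libraries and replicate numbers, so these values are descriptions.

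Other genes of the pathway were counted between the same high and low dye cells, where 17.7% of all genes were called without the block and 37.2% with it. Among 16 tested of 23 other smooth muscle genes, 2 rose and 1 fell: HSPB6, a small heat shock protein of smooth muscle, rose by 1.04 ± 0.24 (adjusted p = 0.0069), PDLIM3, a protein of the actinin-bound cytoskeleton, rose by 1.01 ± 0.28 (adjusted p = 0.018), and TPM4, a tropomyosin also of non-muscle cells, fell by 0.26 on the log2 scale (adjusted p = 0.0334). Among 24 actomyosin and focal adhesion genes, MYLK, the kinase that phosphorylates myosin light chains, rose by 0.89 ± 0.17 (adjusted p = 0.0022), and MYH10, a non-muscle myosin heavy chain, fell by 0.46 (adjusted p = 0.0449). In a list of 10 genes for SRF, its cofactors and other regulators of transcription, none was called without the block. With it 3 (MRTFB, ELK3 and ELK4) were lower. Without the block 2 of the 10 had an unadjusted p under 0.05, as did 4704 of all 14592 genes. Among 14 myofibroblast matrix genes, COL3A1 (1.36 ± 0.45), COL1A2 (0.65 ± 0.16) and FN1 (0.54 ± 0.11) rose and none fell. With the block the numbers that rose and fell were 4 and 3 of the smooth muscle genes, 5 and 3 of the actomyosin genes, and 10 and 1 of the matrix genes. The median log2 fold changes of these 4 lists were 0.11, 0.04, -0.06 and 0.51 in that order.

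Proliferation genes moved with the dye as well. Of 10, 8 fell from low to high dye cells, where 1219 of all 14592 genes fell. Among the 8 were ORC1 (-1.30 ± 0.17), MCM2 (-1.11 ± 0.22), MCM5 (-1.06 ± 0.21) and CDC20 (-0.97 ± 0.21). The summed level of the 10 was 2301 to 2733 CPM in the 4 low dye libraries and 1024 to 2101 CPM in the 4 high dye libraries, without overlap. Its part in the values of the contractile genes was not tested. The summed level of the 7 pericyte markers overlapped, at 823 to 1134 CPM in low and 899 to 1096 CPM in high dye cells, and 0 of the 7 were called (2 at an unadjusted p under 0.05, 3 higher with the block: RGS5, MCAM and NOTCH3). ANPEP, at 593 CPM, made up most of that sum. The log2 fold changes of the 7 ran from -0.32 to 1.99, with a median of 0.105 and 4 of 7 above 0. RGS5, a regulator of G protein signalling, did not overlap, at 4.43 to 9.99 CPM in low and 11.9 to 58.0 CPM in high dye cells (1.99 ± 0.71, adjusted p = 0.0576), and its slope over the gates passed the test (0.69 ± 0.18, adjusted p = 0.0096). The share of all genes without overlap between low and high dye cells was not counted. With the block, 3 of the 7 pericyte markers had a rising slope that passed the test and 1 a falling one, where 43.8% of all genes passed. The part of the pericyte markers in the contractile gene values was not tested.

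The second question was whether contractile genes changed when LSD1 was inhibited. ACTA2 rose, and the other 9 genes did not pass the test. ACTA2 measured 52.2 CPM with DMSO, 55.4 CPM with no drug, and 121 and 120 CPM in the 2 libraries with LSD1 inhibition. Both treated libraries lay above both controls, and the log2 fold change was 1.17 ± 0.11 (a fold of 2.25, adjusted p = 0.0287). It was 1 of the 16 genes called of 14002 (0.114%, all of them higher), and ranked 8 by p and 184 by the size of its rise. With 1 library left out, which leaves 1 arm with a single library, between 108 (without LSD1 inhibition replicate 1) and 331 (without the no drug library) of all genes were called, and between 1 and 4 of the 10. The ACTA2 call held without each of the 4 libraries in turn, at log2 fold changes from 1.12 to 1.22, and was lost without the filter on low counts (1.16, adjusted p = 0.421). FAS, which shares exon bases with ACTA2, had a log2 fold change of -0.04 ± 0.12 here.

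In 4 of the other genes the treated and control libraries did not overlap either, which with 2 libraries a side is common: 34.1% of the 14002 genes did not overlap (17.7% with both treated libraries higher). ACTG2 measured 166 and 165 CPM in the controls and 255 and 247 CPM with LSD1 inhibition (0.61 ± 0.10 on the log2 scale, adjusted p = 0.128). LMOD1 measured 7.08 and 7.46 CPM against 15.4 and 15.02 CPM (1.07 ± 0.16, adjusted p = 0.11). SYNPO2 measured 17.1 and 20.02 CPM against 31.6 and 26.5 CPM (0.65 ± 0.16, adjusted p = 0.286), and TPM1 709 and 765 CPM against 927 and 964 CPM (0.37 ± 0.11, adjusted p = 0.447). These differences were larger than the gaps between replicates but did not pass the adjustment over all genes; ACTG2 and LMOD1 passed in DESeq2 (adjusted p = 0.00783 and 0.0136).

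The remaining 5 genes overlapped. MYL9 had a log2 fold change of 0.26 ± 0.16, TAGLN 0.12 ± 0.13, CNN1 0.09 ± 0.16, TPM2 0.05 ± 0.11 and CALD1 -0.03 ± 0.11. Nominal 95% intervals of the log2 fold change ran from -0.14 to 0.37 for TAGLN and from -0.17 to 0.27 for TPM2. They were built from the standard error with a normal distribution, so with so few libraries they are too narrow. They do not show that these genes were unaffected. The median over the 10 genes was 0.31 and over all genes -0.005. Each control is 1 library, and DMSO and no drug differ in vehicle; the log2 ratio of no drug to DMSO ran from -0.01 (ACTG2) to 0.32 (MYL9) over the 10 genes. Of the other lists, 0 of 17 smooth muscle genes, 0 of 24 actomyosin genes, 0 of 10 genes of the SRF list and 0 of 14 matrix genes were called by edgeR. Of these, 3, 1, 2 and 3 had an unadjusted p under 0.05. Over all genes, 950 of 14002 had an unadjusted p under 0.05. The summed proliferation genes were at 1484 and 1836 CPM in the controls and at 1240 and 1625 CPM with LSD1 inhibition. The summed level of the 9 epithelial markers was 227 and 287 CPM in the controls and 329 and 395 CPM with LSD1 inhibition, without overlap, mostly from the keratins KRT18 and KRT8. Of the 5 tested none was called and 4 had an unadjusted p under 0.05, with EPCAM at 2.36 ± 0.33 (adjusted p = 0.0988), while CDH1 stayed below 1 CPM and KRT5 had 0 counts. The summed pericyte markers were at 1237 and 1274 CPM in the controls and at 1295 and 1470 CPM with LSD1 inhibition, with 0 of 7 called and 2 at an unadjusted p under 0.05. The part of these markers in the contractile gene values was not tested.

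**Figure D4:**
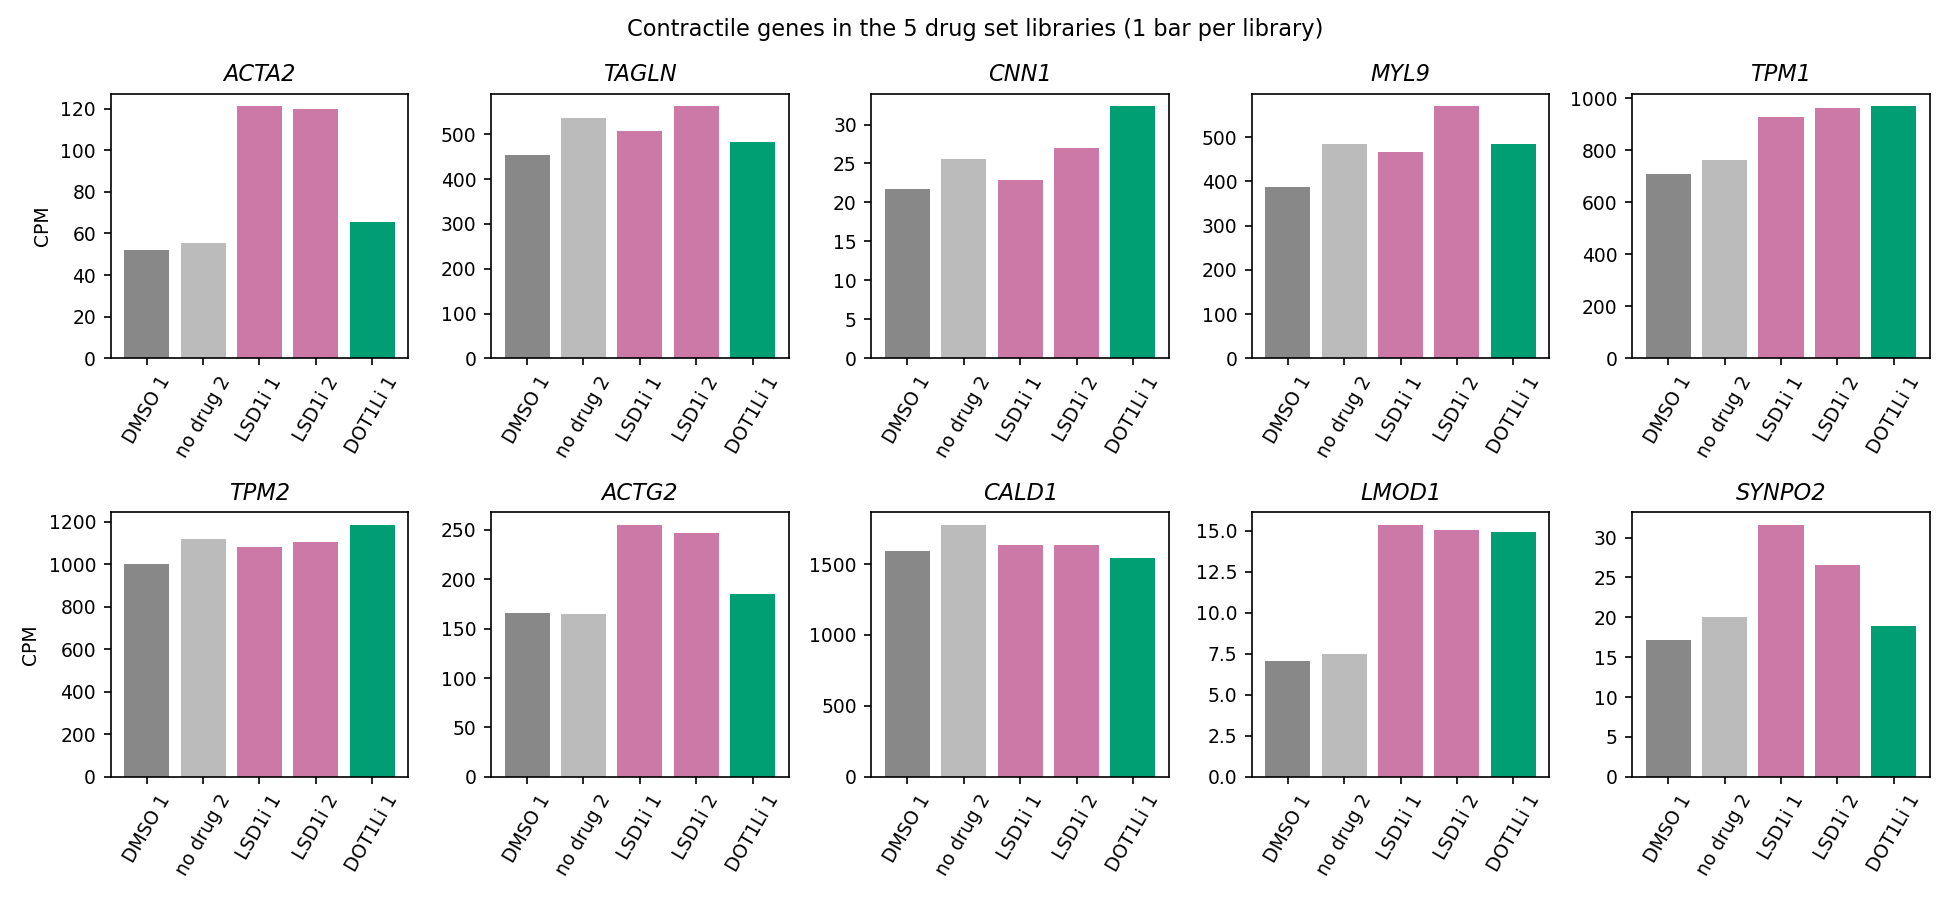
CPM of each gene in the 5 drug set libraries, 1 bar per library, with the axis of each gene starting at 0. ACTA2, ACTG2, LMOD1, SYNPO2 and TPM1 are higher in both LSD1 inhibition libraries than in both controls, as are 17.7% of all genes, and LMOD1 is also higher in the DOT1L inhibition library; of the 10, ACTA2 alone passed the test of LSD1 inhibition.

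Set side by side, ACTA2 had log2 fold changes of similar size in both comparisons, 1.26 with the dye and the block and 1.17 with LSD1 inhibition. ACTG2 had -0.09 and 0.61. TPM2 had 0.69 and 0.05. The comparisons use different libraries, and the differences between them were not tested.

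**Figure D5:**
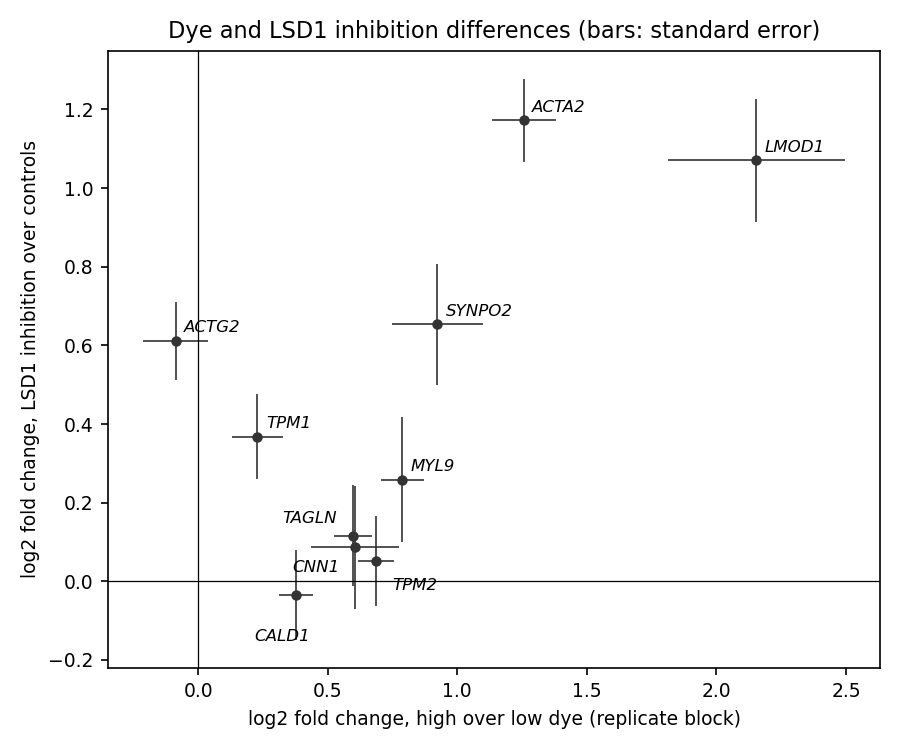
Log2 fold change of high over low dye cells with the replicate number as a block (x axis, n = 4 per group) against that of LSD1 inhibition over its controls (y axis, n = 2 per group), 1 point per gene with standard errors. ACTA2 and LMOD1 are high on both axes, while ACTG2 is at -0.09 and 0.61.

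DOT1L inhibition was measured in 1 library, so its difference from DMSO has no replicate check and no test. LMOD1, which was higher, was the only contractile gene past 1.5-fold, as were 14.1% of 14990 genes in either direction (1505 higher and 612 lower). It measured 14.9 CPM (260 counts) against 7.08 CPM (114 counts) with DMSO, a log2 ratio of 1.06 with a 95% exact counting interval from 0.75 to 1.41. The other log2 ratios were 0.58 for CNN1, 0.45 for TPM1, 0.33 for ACTA2, 0.32 for MYL9, 0.25 for TPM2, 0.16 for ACTG2, 0.14 for SYNPO2, 0.09 for TAGLN and -0.04 for CALD1. For 4 of them the no drug library differed from DMSO by as much or more, by 0.32 for MYL9, 0.24 for TAGLN, 0.22 for SYNPO2 and 0.16 for CALD1.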

How the data were processed

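The authors deposited 1 table per library of raw read counts per gene, whole numbers for 58302 Ensembl genes; per the submitters' processing notes STAR, HTSeq and hg38 (GRCh38) were used, with versions, annotation release and strand setting not given in the sources used here. Per the labels' protocols, libraries were made from poly(A) RNA with a kit that does not mark strand. A table repeating the counts of the series was not used. Reads outside genes were 4.33% to 7.72%, and ambiguous reads 7.14% to 7.62%; both were left out.

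Exon lengths and positions came from GENCODE 29, which holds 58039 of the genes, and promoters from RefSeq. Counts were filtered (filterByExpr), scaled by TMM and tested with edgeR 4.0.16 (limma 3.58.1, R 4.3.3); sort comparisons used all 20 libraries in 1 fit of 5 groups, the slope the 16 gated libraries and LSD1 inhibition its 4 libraries. DOT1L inhibition was set against DMSO by log2 CPM, to which a prior count of 2 was added. Errors of fold changes were derived from the F statistic. DESeq2 1.42.0, 2 other scalings, no filter, a replicate block and libraries left out were alternatives. The fits without the block were tried on simulated counts that held no replicate number effect, so the fits with the block were not covered.

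Replicate numbers paired the sort libraries: after group means were removed, all 40 same-number pairs correlated over 0.1 (0.146 to 0.618), as did 16 of 120 other pairs. The 10 genes and all lists were chosen with earlier results of these data known. Beside the 10 genes, the text names the 5 genes most correlated with ACTA2 and with the list's mean and, per other list, up to 4 genes called with the largest change (mean of at least 10 CPM) or, where none was, the 2 most abundant; other genes named are markers, or (PDLIM3, MRTFB, ELK3, ELK4) were named after their values were seen. 1 further list of signalling genes is not reported here.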

Additional observations from a re-analysis of the deposited data

How the results depend on the processing

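The number of the 10 contractile genes called depended most on the replicate block. With the replicate block it went from 1 to 8 for high against low dye, from 2 to 9 for the slope over the gates, from 0 to 5 for midhigh against midlow, from 0 to 4 for high dye against ungated and from 0 to 5 for low dye against ungated; the 2 other steps stayed at 0. Over all genes these fits called 5433 in place of 2589, 6317 in place of 3784, 1574 in place of 0, 1107 in place of 1 and 1575 in place of 11. For LSD1 inhibition the replicate block called 6 of the 10 genes in place of 1 and 2242 of all genes in place of 16; there the numbers set DMSO against no drug, with 1 residual degree of freedom, and only 2 pairs exist, so the numbers are not taken to pair these samples.

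Without the filter on low counts, 2 of the 10 were called for high against low dye and 0 for LSD1 inhibition, where 0 of all genes were called; DESeq2 called 3 for LSD1 inhibition, and 109 of all genes. Over all genes no filter and DESeq2 called 99 and 128 for midhigh against midlow, 25 and 15 for high dye against ungated, and 177 and 191 for low dye against ungated. With only the 2 compared groups in the fit, 1497 genes were called for high against low dye and 0 for either end against ungated. For DOT1L inhibition, scaling by library size alone put 2 of the 10 past 1.5-fold, and against the mean of DMSO and no drug TAGLN was at -0.031.

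The following alternatives were chosen after the data were seen. In the libraries numbered 1 and 2 only, 2 of the 10 were called for high against low dye and 4 for the slope, with 301 and 1465 of all genes; LMOD1 lost its slope call (0.51, adjusted p = 0.165). In those numbered 3 and 4 only, 0 and 7 of the 10 were called, with 0 and 2520 of all genes, and TPM2 was at 0.78 (adjusted p = 0.0719); ACTG2 turned to 0.076 for high against low dye and 0.019 for the slope. With the block and any 1 high dye library left out, 8 and 9 of the 10 were called; without high dye library 1 ACTG2 was at 0.049 and 0.013.

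With 1 library left out and no block, the counts of the 10 ran from 0 to 1 for high against low dye, from 1 to 2 for the slope and from 1 to 4 for LSD1 inhibition. Over all genes, high against low dye ran from 1255 (without high dye replicate 3; 1519 without high dye replicate 1) to 2965, and the slope from 2514 (without high dye replicate 3) to 4149. High dye against ungated ran from 0 to 6 and low dye against ungated from 0 to 36. Fold changes whose sign depended on 1 library ran from -0.27 to 0.30 for ACTG2 in high against low dye and from -0.074 to 0.064 for its slope. ACTA2 ran from -0.11 to 0.84 over the lower step and from -0.45 to 0.67 over the upper step, and TAGLN from -0.40 to 0.012 in low dye against ungated, and LMOD1 from -0.44 to 1.48 in high dye against ungated. Within same-numbered pairs, ACTA2 was higher in 4 of 4 over the lower step and in 3 of 4 over the upper step. LMOD1 was higher in 4 of 4 pairs of high dye against ungated, and TAGLN in 1 of 4 of low dye against ungated. For LSD1 inhibition, TAGLN ran from -0.0068 to 0.25, CNN1 from -0.045 to 0.22, TPM2 from -0.037 to 0.14 and CALD1 from -0.12 to 0.054. The cause was not tested in any of these. The lone library left in an arm is assumed to vary like the others. Depth limits LMOD1 most, with 1 to 25 counts in the low dye libraries.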
